A study of Mus musculus with 14 samples.

Results

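Zfp281 was put back into a knockout line of mouse embryonic stem cells (ESCs), and the restored line was compared with wild type at every stage of a differentiation course. The comparison rests on 6 of the series' 14 polyA RNA-seq libraries, chosen by genotype and stage: 3 of the rescued line (Rescue3.34) and 3 of the wild-type line (WT3). WT3 is cell line 3+/+. Rescue3.34 is cell line 3.34-/-, with the genotype Zfp281KO plus a Zfp281 Rescue, and KO3.34 is the same knockout line without the rescue. KO2.6 is a second Zfp281KO line, which its title calls 2.6 and its cell line field 2.26-/-. All 4 lines have the strain background 129S1/SVImJ. XENB1 (129S1) and XEN5 (129S1/SVImJ) are wild-type lines of extraembryonic endoderm (XEN) stem cells and serve only for reference levels.

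Each genotype is 1 line, with 1 library per stage, and the labels name neither the promoter of the rescue nor its copy number. ESC is passage 0, feeder-free cells on gelatin with serum and leukemia inhibitory factor (LIF). For cXENp1, passage 1, cells spent a day in XEN medium and then 48 h under 0.01 µM all-trans retinoic acid plus 10 ng/mL activin A. They were next grown on iMEF feeders, which are fibroblasts, and replated on gelatin in XEN medium for passage 3, cXENp3.

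Zfp281 is a zinc finger transcription factor of pluripotent stem cells. ESCs can be turned into XEN-like cells, the stem cells of the lineage that forms the yolk sac, by retinoic acid and activin, and the series title presents Zfp281 as a factor that limits the transition. A rescue asks whether restoring the missing protein brings the knockout back to the wild-type state. Genes that stay apart from wild type in a rescued line are therefore as informative as those that return.

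Zfp281 (XLOC_000413, chromosome 1, 138521478 to 138526968, mm9) was close to the wild-type level in the rescue. In the order ESC, cXENp1 and cXENp3, in which all triplets of values are given, WT3 had 28.5, 25.1 and 34.0 FPKM (fragment counts corrected for transcript length and for library total), and Rescue3.34 had 27.7, 27.2 and 38.6 FPKM. KO3.34 had 3.92, 1.29 and 3.96 FPKM, and KO2.6 was listed at 0 at ESC and cXENp1 and had 0.559 FPKM at cXENp3. The ranges of WT3 and Rescue3.34 overlap, and every knockout library lies below them. On the log2(FPKM + 1) scale used for all differences here, Rescue3.34 minus WT3 was -0.04, 0.11 and 0.18 at the 3 stages. Over the stages the difference was 0.08 (SE 0.14, limma, adjusted p 0.993).

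The deposited table gives FPKM without read counts, so the depth behind each value is unknown and no counting interval was computed. The 14 libraries summed to 424400 to 718100 FPKM, with 14972 to 16831 genes above 0, and no pair of libraries held identical values. Both libraries of each stage pair carry the same prefix in their descriptions, JH at ESC and XH at cXENp1 and cXENp3. Nothing in the labels says that stages of 1 line were separate cultures, so the p-values measure only the spread between these samples.

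The rescued line was closest to wild type as ESCs and farthest from it at passage 3. Of 13089 genes tested (at least 1 FPKM in at least 1 of the 6 libraries), 57 (0.435%) were at least 2-fold higher and 47 (0.359%) at least 2-fold lower in Rescue3.34 at ESC. At cXENp1 the counts were 99 higher (0.756%) and 250 lower (1.91%). At cXENp3 they were 736 higher (5.62%) and 318 lower (2.43%). The share of genes within a log2 difference of 0.5 went from 92.5% at ESC to 85.2% at cXENp1 and 71.4% at cXENp3, and the SD of the differences over genes from 0.33 to 0.41 and 0.66.

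**Figure D1:**
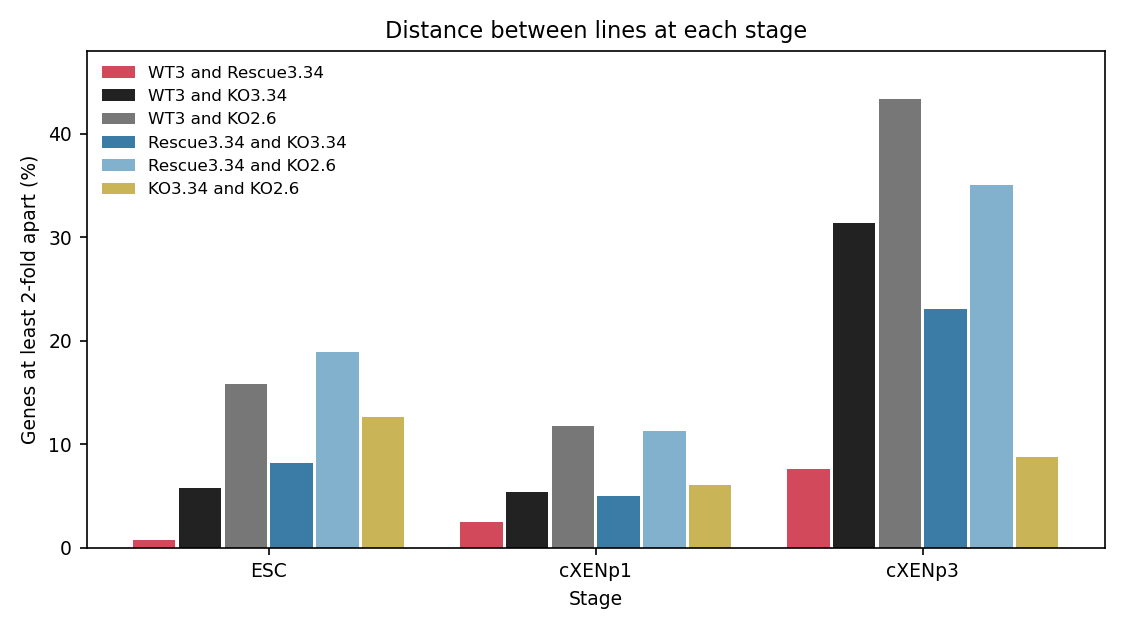
Share of 13867 genes at least 2-fold apart (y axis, percent) between each pair of the 4 lines at ESC, cXENp1 and cXENp3 (x axis), 1 library per line and stage. The WT3 and Rescue3.34 bar, at 0.75%, 2.52% and 7.6%, is the lowest of the 6 pairs at each stage.

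The other pairs of lines give the scale for these numbers. Over 13867 genes with at least 1 FPKM in at least 1 of the 12 course libraries, WT3 and Rescue3.34 were 2-fold apart in 104, 349 and 1054 genes at ESC, cXENp1 and cXENp3. WT3 and KO3.34, the parent of the rescue, were 2-fold apart in 802, 749 and 4352 genes. The knockout lines differed from each other in 1743, 836 and 1222 genes. At passage 3 the rescue thus differed from wild type by 7.6% of genes and from its own parent line by 23.1%.

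Genes set apart by the independent knockout line mostly lay in the wild-type direction in the rescue. Genes were taken where WT3 and KO2.6 were at least 2-fold apart, and Rescue3.34 was then compared with KO3.34, so that no library is shared. At ESC, 1335 of 1658 such genes (80.5%) differed in the wild-type direction, and 390 of the 1658 (23.5%) did so by at least 2-fold. Over all 9205 genes, 9.69% were at least 2-fold apart there in either direction. The share of all genes in the wild-type direction was not counted at any stage. At cXENp1, 1036 of 1270 genes (81.6%) differed in the wild-type direction, and 233 of the 1270 (18.3%) did so by at least 2-fold. Over all 9541 genes, 5.29% were at least 2-fold apart in either direction. At cXENp3, 4555 of 4921 genes (92.6%) differed in the wild-type direction, and 2222 of the 4921 (45.2%) did so by at least 2-fold. Over all 10043 genes, 26.7% were at least 2-fold apart in either direction. The median size was 0.91 between Rescue3.34 and KO3.34 against 1.76 between WT3 and KO2.6. The genes were chosen on the second difference, which raises it, so the 2 sizes do not give the part restored. Genes at least 2-fold the opposite way numbered 16 at ESC, 15 at cXENp1 and 75 at cXENp3. These counts have no test, with 1 library per line and stage.

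No gene was called different between Rescue3.34 and WT3 across the 3 stages (0 of 13089, 0.0%, limma with stage as a block, smallest adjusted p 0.873). At an unadjusted p under 0.05 there were 384 genes, or 2.93%. As a description without a test, a gene was taken to stay different where the difference had the same sign and was at least 2-fold at each stage, with a highest value of at least 5 FPKM. Of 9959 genes at that level, 3 were higher throughout (0.0301%) and 0 lower (0.0%). They are Plac8, Alox12e and Krt7. With quantile normalization the count was 2 higher and 1 lower.

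Plac8 (XLOC_015979, chromosome 5, 100982752 to 101001224), a small cysteine-rich protein named for its placental expression, showed the steadiest difference. WT3 had 11.9, 4.45 and 7.22 FPKM, and Rescue3.34 had 29.2, 14.9 and 25.8 FPKM. No value of Rescue3.34 falls within the WT3 range. The differences were 1.22, 1.54 and 1.70, with 1.49 over the stages (SE 0.16, limma, adjusted p 0.873). KO3.34 had 0.802, 10.3 and 29.5 FPKM, so the parent line was below WT3 at ESC and above it later.

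Alox12e (XLOC_003533, chromosome 11, 70129115 to 70136020), an epidermal lipoxygenase, was above 0.133 FPKM in the rescue libraries alone of all 14. Rescue3.34 had 7.48, 1.63 and 6.83 FPKM, against at most 0.0675 FPKM in WT3. In KO3.34 it had 0.0176 FPKM at ESC and was listed at 0 at cXENp1 and cXENp3, and KO2.6 at cXENp1 had that highest value of the others. Both XEN lines were listed at 0. Its neighbours did not share the difference: Alox12, on one side, had 1.29, 0.700 and 0.898 FPKM in WT3 and 1.27, 0.889 and 0.477 in Rescue3.34. The neighbour on the other side, Alox15, stayed at or below 0.514 FPKM in all 6 libraries.

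Krt7 (XLOC_006916, chromosome 15, 101242834 to 101258237), a keratin of simple epithelia, had 4.95, 1.62 and 0.155 FPKM in WT3. Rescue3.34 had 11.6, 14.5 and 1.33 FPKM, with differences of 1.09, 2.56 and 1.01. KO3.34, with 7.03, 23.9 and 1.54 FPKM, was also above WT3 at each stage. The last Krt7 difference lies just inside the 2-fold limit. The nearest genes outside it were Cda on the higher side, with 0.87, 0.83 and 0.66, and on the lower side Uty, with -1.63, -1.35 and -0.98, followed by Lmbr1l, with -0.93, -1.15 and -1.205.

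Further genes from the lower side had the same sign at each stage but missed the 2-fold limit. Lmbr1l (XLOC_007340, chromosome 15, 98734352 to 98748529), a membrane receptor, had 15.7, 14.6 and 12.7 FPKM in WT3 and 7.77, 6.03 and 4.94 in Rescue3.34. Gab1, a docking protein of receptor tyrosine kinases, had 72.3, 45.9 and 57.5 FPKM in WT3 and 30.7, 27.6 and 20.5 in Rescue3.34. For both genes every rescue library lies below every wild-type library. Gbx2, a homeobox gene of pluripotent cells, had 13.8, 38.8 and 32.6 FPKM in WT3 and 6.69, 20.5 and 22.1 in Rescue3.34, and there the ranges of the lines overlap. Lmbr1l, Gab1 and Gbx2 are examples picked with the levels already known, and they do not follow a ranking. By smallest absolute difference over the stages, Gm7325, Nxph4 and 2410006H16Rik had 0.828, 0.802 and 0.756, above Gab1 (0.716) and Gbx2 (0.54). Lmbr1l, Gab1 and Gbx2 did not reach the adjusted threshold in limma.

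The 3 Y-linked genes tested, of 6 listed, were lower in the rescue than in wild type at each stage. Eif2s3y, which encodes a translation initiation subunit, had 91.2, 56.0 and 49.8 FPKM in WT3, 43.0, 34.4 and 30.5 in Rescue3.34 and 2.19, 5.79 and 2.45 FPKM in KO3.34. Uty, a histone demethylase homologue, had 5.62, 10.8 and 4.96 FPKM in WT3, 1.13, 3.65 and 2.03 in Rescue3.34 and 0.836, 2.41 and 0.999 FPKM in KO3.34. The RNA helicase gene Ddx3y had 19.4, 24.7 and 10.7 FPKM in WT3 against 4.43, 6.56 and 6.99 in Rescue3.34 and 6.36, 5.10 and 4.91 FPKM in KO3.34, which was above the rescue at ESC. The differences of the 3 Y-linked genes tested had medians of -1.63, -1.35 and -0.69. All 3 medians over the 13089 genes tested lie between -0.09 and 0.01.

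**Figure D2:**
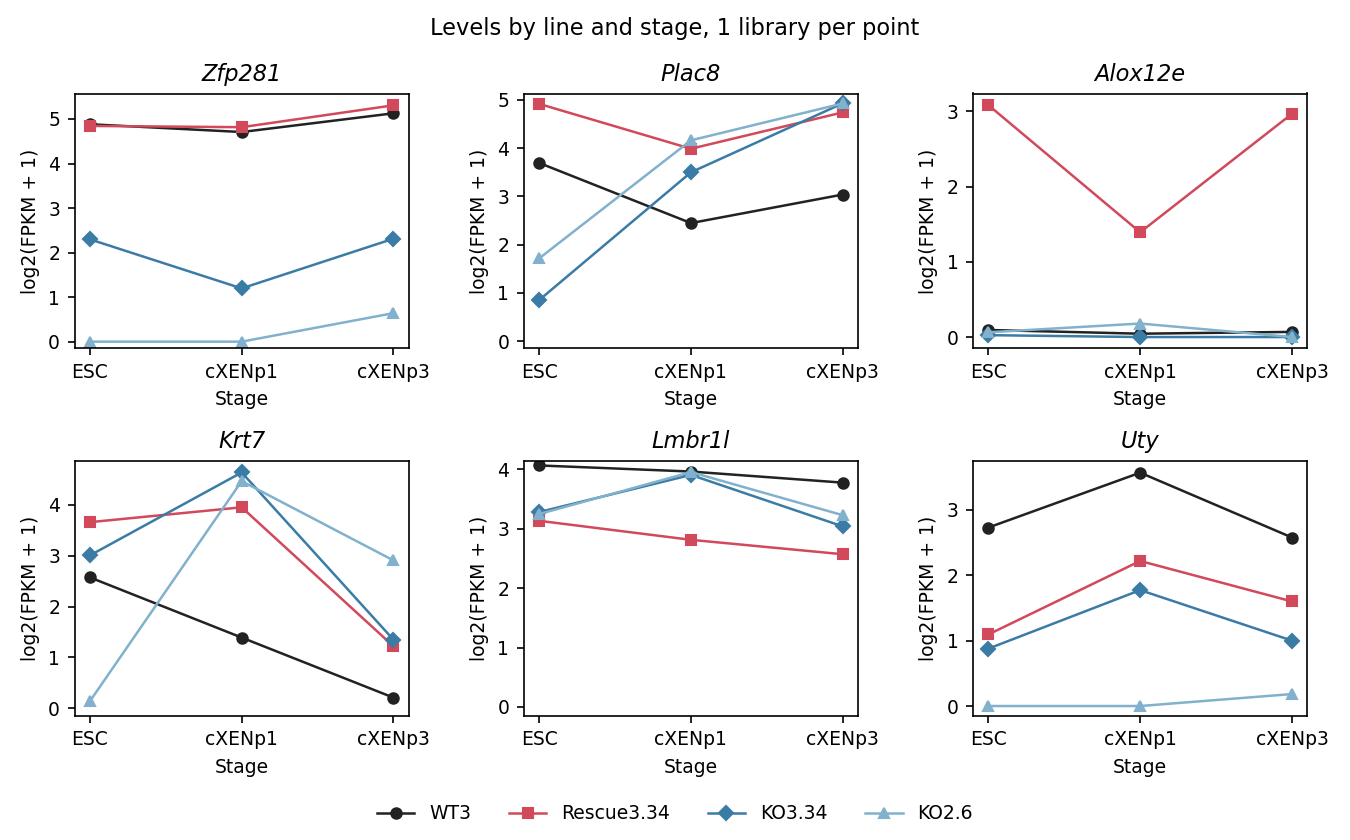
Levels in log2(FPKM + 1) (y axis) of Zfp281, of the 3 genes that stay higher in the rescue (Plac8, Alox12e, Krt7) and of Lmbr1l and Uty, in the 4 lines at ESC, cXENp1 and cXENp3 (x axis). Each point is 1 library. For Zfp281 the WT3 and Rescue3.34 points lie together, and for the other 5 genes they are apart at each stage.

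Passage 3 was also set against the earlier stages in a model. The Rescue3.34 by cXENp3 term, which asks whether the difference at passage 3 departs from that at ESC and cXENp1, called 150 genes in limma. Of these, 145 (1.11% of 13089) were higher and 5 (0.0382%) lower at passage 3. The lower genes were Cldn4, Cdk5r2, Snhg9, Snora31 and Snora43. Cldn4, a tight junction claudin, had 129, 40.7 and 42.1 FPKM in WT3 and 148, 87.7 and 7.28 in Rescue3.34 (term -3.03, SE 0.41, adjusted p 0.0406). Cdk5r2, an activator of the kinase Cdk5, had 1.54, 2.00 and 11.7 FPKM in WT3 and 2.097, 4.92 and 1.81 in Rescue3.34 (term -2.81, SE 0.41, adjusted p 0.0498). The model leaves 1 residual degree of freedom per gene, the gap between the ESC and cXENp1 differences, so the spread at passage 3 itself was not measured, and the count ranged from 0 with every expressed gene tested to 407 without genes listed at 0.

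Snora31, Snora43 and Snora15, small nucleolar RNAs that lie within host genes and whose values are uncertain for that reason, each had a value in 1 of the 6 libraries. Snora31 had 264.6 FPKM and Snora43 had 128 FPKM in WT3 at cXENp3 and were listed at 0 in the other 5. Snora15 had 175 FPKM in Rescue3.34 at cXENp3 and was listed at 0 in the other 5. Snhg9 was listed at 0 in 3 of the 6 libraries. Of the 150 called genes, 23 had a value of 0.

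A gene was described as different at passage 3 only where the difference was at least 2-fold there and under 0.5 on the log2 scale at ESC and cXENp1. Of the 9959 genes at 5 FPKM or more, 263 (2.64%) were higher and 168 (1.69%) lower in Rescue3.34 by this rule. The cXENp3 term of limma called 92 of the higher and 2 of the lower genes, and 28 of the 431 had a value of 0. Since the rule used the same contrast, these calls describe the genes and add no support. At the edge of the rule, Pdlim2 and Kdelr3 lay just inside, at 1.000 and 1.002, and Lphn2 and 2610008E11Rik just outside, at 1.000 (rounded up) and 0.998. On the lower side Mettl7a1 and Adam23 lay inside, at -1.003 and -1.004, and Dlgap3 and Slc12a8 outside, at -0.999 and -0.998.

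**Figure D3:**
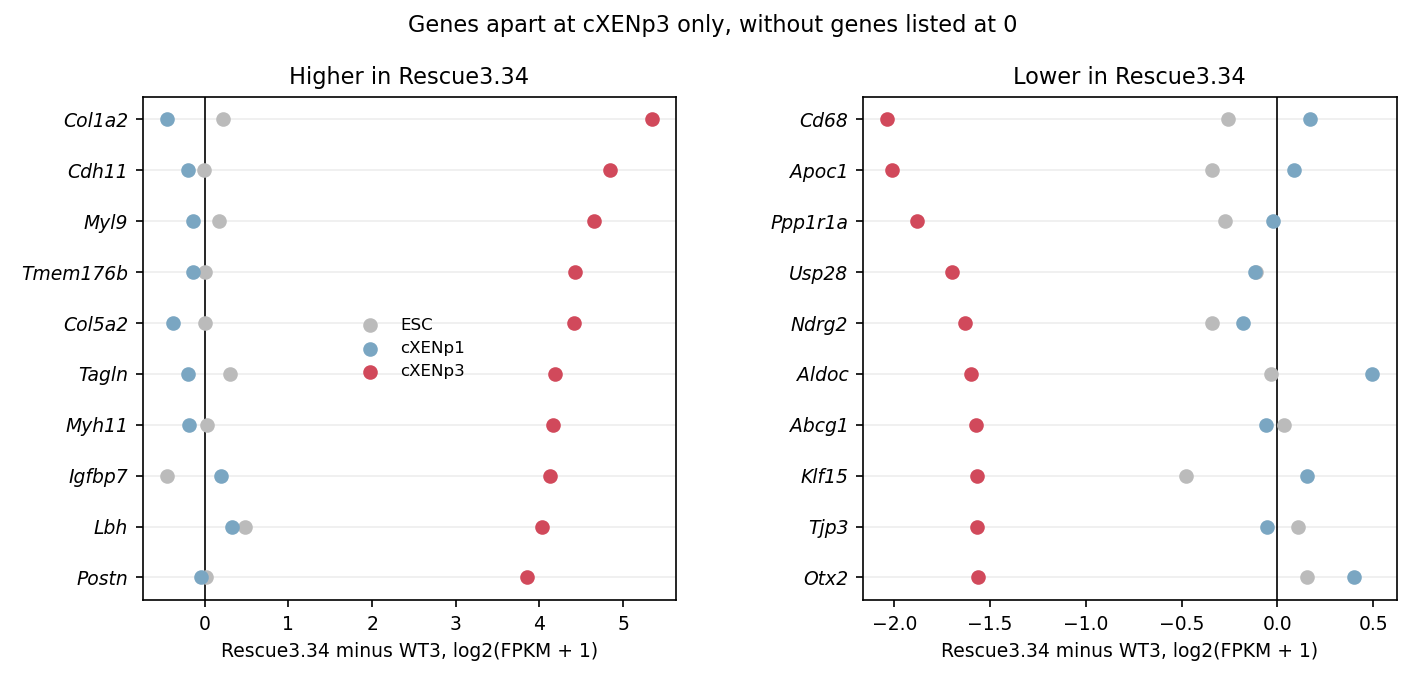
Rescue3.34 minus WT3 in log2(FPKM + 1) (x axis) at ESC, cXENp1 and cXENp3 for the 10 higher and the 10 lower genes with the largest difference at passage 3 among those different at cXENp3 only and not listed at 0 in any of the 6 libraries. Each point is 1 pair of libraries. The higher genes plotted reach 3.85 to 5.34 at cXENp3 and the lower genes -1.56 to -2.04.

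Collagens and other matrix genes were among the higher genes with the largest differences. Col1a2 (XLOC_016332, chromosome 6, 4455697 to 4491543), a chain of type I collagen, had 0.0941, 38.5 and 7.24 FPKM in WT3 and 0.270, 27.8 and 334 in Rescue3.34. The lines moved together until cXENp1 and parted at passage 3, where WT3 was lower than at cXENp1 and Rescue3.34 higher. The cXENp3 term was 5.46 (SE 0.37, limma, adjusted p 0.0113). Other matrix genes parted from wild type at the same stage. Col5a2, of type V collagen, had 0.0247, 9.36 and 3.35 FPKM in WT3 and 0.0268, 6.98 and 91.6 in Rescue3.34 (term 4.597, SE 0.35, adjusted p 0.0152). Postn, a matricellular protein of mesenchyme, had 0.0247, 0.184 and 0.685 FPKM in WT3 against 0.0380, 0.145 and 23.3 in Rescue3.34 (term 3.87, SE 0.36, adjusted p 0.0227). Sparc, a collagen-binding protein that parietal endoderm also makes, had 37.9, 184 and 79.8 FPKM in WT3 and 30.9, 150.6 and 475 in Rescue3.34 (term 2.85, SE 0.27, adjusted p 0.0227).

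A list of fibroblast and stroma genes was included because the cells had passed over iMEF feeders. Like all lists here, it was chosen with earlier results of these data known, so its shares describe it and are no independent test. It was higher in Rescue3.34 at passage 3 nearly throughout. All 16 members were above WT3 there, 15 by at least 2-fold, with a median of 3.22, where 5.62% of all genes tested were 2-fold higher and their median was -0.09. The term, which called 1.11% of all genes tested as higher, called 10 of the 16: Col3a1, Prrx1, Dcn, Col6a1, Vim, Col5a1, Fbn1, Postn, Col1a2 and Thy1. Summed over the list, WT3 had 364, 382 and 423 FPKM at the 3 stages and Rescue3.34 had 407, 251 and 2152 FPKM. At passage 3 the sum was 1574 FPKM in KO3.34 and 1797 FPKM in KO2.6, and it was 1826 and 1398 FPKM in XENB1 and XEN5. Lum, a fibroblast proteoglycan, was listed at 0 in WT3 at cXENp3 and had 8.32 FPKM in Rescue3.34. The part of feeder cells in these levels was not tested, and in bulk RNA more cells of a type and more RNA per cell cannot be told apart.

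Some of these genes exceeded every other library. Col1a1, the partner chain of Col1a2, had 17.5 FPKM in WT3 and 509 in Rescue3.34 at passage 3, against 133 and 168 FPKM in the knockout lines and 326 and 278 FPKM in XENB1 and XEN5 (term 5.25, SE 0.80, limma, adjusted p 0.0533, which misses the threshold). Col3a1, of type III collagen, had 4.21 FPKM in WT3 and 305 in Rescue3.34 there, against 30.0 and 20.8 FPKM in the knockout lines and 27.8 and 35.2 FPKM in the XEN lines. Cdh11, a cadherin of mesenchymal cells, had 1.52 FPKM in WT3 and 71.2 in Rescue3.34 there, against 10.7 and 18.1 FPKM in the knockout lines (term 4.94, SE 0.35, adjusted p 0.0126). In 51 of the 263 higher genes (19.4%) the highest of all 14 libraries was Rescue3.34 at cXENp3, which holds for 1.97% of the 9959 genes. The 263 genes were chosen for a high value in that same library, so a larger share is built in and adds no support.

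Actin-binding and contractile genes were also among the largest differences. Myl9 (XLOC_011397, chromosome 2, 156601200 to 156607393), a regulatory light chain of smooth muscle myosin, had 0.0535, 49.7 and 5.27 FPKM in WT3 and 0.181, 45.0 and 157 in Rescue3.34 (term 4.64, SE 0.31, limma, adjusted p 0.0108). Tagln, an actin-binding protein of smooth muscle, had 0.163, 172 and 20.8 FPKM in WT3 and 0.438, 150.3 and 395 in Rescue3.34 (term 4.13, SE 0.32, adjusted p 0.0152). Both genes were high in both lines at cXENp1, and at passage 3 WT3 was lower than at cXENp1 and Rescue3.34 higher. Myh11, the smooth muscle myosin heavy chain, was low until passage 3, with at most 0.468 FPKM in WT3, and had 19.09 FPKM in Rescue3.34 at cXENp3 (term 4.24, SE 0.37, adjusted p 0.0216). Actg2, smooth muscle gamma actin, was listed at 0 in both lines at ESC and had 1.66 FPKM in WT3 and 196 in Rescue3.34 at cXENp3.

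All 14 members of the smooth muscle and contractile list were at least 2-fold higher in Rescue3.34 at passage 3, with a median of 3.05, and the term called 12 of them. The 2 others were Tpm2 (adjusted p 0.0629, limma) and Ankrd1 (adjusted p 0.0643). Of all genes tested, 5.62% were 2-fold higher there and 1.11% were called higher. This list too was chosen with earlier results of these data known, so the shares describe it and are no independent test. At ESC and cXENp1 the list's medians were 0.08 and -0.15. Summed over the list, WT3 had 71.8, 930 and 181 FPKM and Rescue3.34 had 75.02, 909 and 2258 FPKM. KO3.34 had 2503 FPKM and KO2.6 had 4065 FPKM at passage 3. The summed level of the rescue at passage 3 thus was close to that of its parent line, but its members differed both ways. Rescue3.34 was below KO3.34 there in Ctgf, Cyr61, Cald1, Cnn2, Thbs1 and Ankrd1. It was above KO3.34 in Acta2, Actg2, Tagln, Myl9, Mylk, Cnn1, Tpm1 and Tpm2. The close sums thus do not mean like levels of the contractile genes. Ctgf, a secreted growth regulator, had 82.0 FPKM in Rescue3.34 and 878 FPKM in KO3.34 there, whereas Acta2, smooth muscle alpha actin, had 462 FPKM in Rescue3.34 and 130.0 FPKM in KO3.34.

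Promoters of the passage 3 genes are shown for contractile and actin-linked members because the CArG box, the element bound by serum response factor at actin and myosin genes, was found in them. In the 250 bases before the start site (RefSeq, GRCm38.p6, another build than the mm9 gene positions), either strand, 12 of 206 matched higher genes (5.83%) held a CArG box, against 4 of 131 lower genes (3.05%), 112 of 8007 matched genes at 5 FPKM or more (1.4%) and 439 of all 27025 genes (1.62%). The TEAD motif GGAATG, read on both strands, was in 40 higher genes (19.4%), 18 lower genes (13.7%) and 1009 genes at 5 FPKM or more (12.6%). No overlap between the motifs was counted, and a match is a run of letters and not a bound site. The box was also in Fhl1, Fhl2, Filip1l, Ston1, Glipr2, Stbd1, Nfix and 2700089E24Rik, which are not shown. Of the contractile list's members among the higher genes, only Myl9 and Cnn2 held it, and Tagln and Actg2 had no promoter entry. The promoters shown are thus a selection and do not stand for the contractile list. The box is in capitals, 5′ to 3′ on the gene's strand, beginning 161 bases before the start in Myl9 (chr2:156775214-156775463, plus strand), 56 in Cnn2 (chr10:79988350-79988599, plus), 227 in Vcl (chr14:20929148-20929397, plus) and 73 in Acta1 (chr8:123894776-123895025, minus).
Myl9: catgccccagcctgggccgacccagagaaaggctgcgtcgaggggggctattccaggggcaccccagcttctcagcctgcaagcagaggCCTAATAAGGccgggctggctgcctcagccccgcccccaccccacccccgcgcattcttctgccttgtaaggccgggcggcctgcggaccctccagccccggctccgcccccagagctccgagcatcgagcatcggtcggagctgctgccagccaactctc
Cnn2: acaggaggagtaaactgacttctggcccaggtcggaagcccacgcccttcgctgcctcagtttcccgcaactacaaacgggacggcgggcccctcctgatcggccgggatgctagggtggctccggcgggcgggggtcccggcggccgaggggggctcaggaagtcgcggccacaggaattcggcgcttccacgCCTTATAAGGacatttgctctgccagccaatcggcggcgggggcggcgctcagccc
Vcl: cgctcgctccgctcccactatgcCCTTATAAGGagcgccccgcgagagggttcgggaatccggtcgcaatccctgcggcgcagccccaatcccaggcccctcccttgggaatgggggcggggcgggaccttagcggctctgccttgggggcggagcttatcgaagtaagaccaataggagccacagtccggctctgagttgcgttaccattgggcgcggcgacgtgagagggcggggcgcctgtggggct
Acta1: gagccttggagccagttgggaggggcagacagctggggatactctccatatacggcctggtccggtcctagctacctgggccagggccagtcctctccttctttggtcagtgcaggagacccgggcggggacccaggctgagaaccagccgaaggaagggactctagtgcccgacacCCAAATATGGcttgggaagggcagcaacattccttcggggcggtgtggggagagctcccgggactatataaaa

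The other 3 genes of these promoters were Cnn2, Vcl and Acta1. Cnn2, a calponin, had 16.96, 79.6 and 21.7 FPKM in WT3 and 16.7, 83.3 and 101 in Rescue3.34 (term 2.14, SE 0.26, limma, adjusted p 0.0334). Vcl, vinculin of focal adhesions, had 17.9, 57.9 and 23.2 FPKM in WT3 and 17.2, 51.5 and 65.2 in Rescue3.34 (term 1.57, SE 0.26, adjusted p 0.0690). Acta1, skeletal muscle actin, had 1.26, 15.5 and 0.774 FPKM in WT3 and 1.36, 14.9 and 6.10 in Rescue3.34 (term 2.00, SE 0.33, adjusted p 0.0643). In each of these 3, both lines were higher at cXENp1 than at ESC, WT3 was back near its ESC level at passage 3 and Rescue3.34 was not.

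Secreted growth factors and their binding proteins were also among the higher genes. Ptn, a heparin-binding growth factor, was listed at 0 in WT3 at ESC and had 6.83 and 0.799 FPKM there later, against 0.0712, 5.45 and 101 FPKM in Rescue3.34. Among the knockout and XEN libraries the highest value was 5.32 FPKM, in KO3.34 at cXENp3. Igfbp7, an insulin-like growth factor binding protein, had 1.87, 1.25 and 8.58 FPKM in WT3 and 1.10, 1.56 and 166 in Rescue3.34 (term 4.25, SE 0.39, limma, adjusted p 0.0227). It was also high in the knockout lines at cXENp3, at 82.4 and 91.1 FPKM. The membrane protein gene Tmem176b had 0.946 FPKM in WT3 and 40.9 in Rescue3.34 at cXENp3, and the transcriptional cofactor gene Lbh had 1.37 and 37.8 FPKM. An immune gene stood among them. B2m, the light chain of MHC class I, had 17.8, 64.7 and 17.02 FPKM in WT3 and 13.6, 58.0 and 93.2 in Rescue3.34 (term 2.65, SE 0.27, adjusted p 0.0227). The class I heavy chain gene H2-K1 was 20.9 and 10.6 FPKM in these libraries at passage 3, so the light chain was higher without it.

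Imprinted growth genes, which are expressed from 1 parental copy, were among the genes with the largest terms. Igf2, a fetal growth factor, had 0.343, 32.8 and 3.56 FPKM in WT3 and 0.294, 19.3 and 358 in Rescue3.34 (term 6.69, SE 0.38, limma, adjusted p 0.00698). H19, its neighbouring noncoding RNA, had 1.86, 194 and 7.83 FPKM in WT3 and 1.90, 100.4 and 344 in Rescue3.34 (term 5.75, SE 0.44, adjusted p 0.0152). The rescue exceeded both the wild-type and the knockout libraries at passage 3 for this pair. There KO3.34 had 15.4 FPKM of Igf2 and 12.2 of H19, and XEN5 had 5.64 and 9.10 FPKM, XENB1 10.4 and 8.28 FPKM. Dlk1, a Delta-like membrane protein, had 0.314, 47.0 and 1.26 FPKM in WT3 and 0.298, 17.02 and 42.7 in Rescue3.34 (term 4.99, SE 0.59, adjusted p 0.0303). Plagl1, a zinc finger factor, was called too (2.46 and 25.7 FPKM at passage 3, adjusted p 0.0345). These 4 were the called members of 28 imprinted genes tested, where 1.11% of all genes were called higher. Of the 28, 11 were at least 2-fold higher and 1 at least 2-fold lower in Rescue3.34 at cXENp3 (5.62% and 2.43% of all genes tested), with a median of 0.61. The lower one, Nnat, a membrane proteolipid, had 5.81 FPKM in WT3 and 0.693 in Rescue3.34 there.

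Apart from Snora31 and Snora43, the genes lower in Rescue3.34 at passage 3 only had smaller differences than the 10 higher genes plotted. Apoc1 (XLOC_018722, chromosome 7, 20274830 to 20278007), an apolipoprotein, had 110, 10.4 and 41.0 FPKM in WT3 and 86.4, 11.1 and 9.39 in Rescue3.34 (term -1.89, SE 0.30, limma, adjusted p 0.0624). Cd68, a lysosomal glycoprotein, had 8.72, 1.11 and 11.2 FPKM in WT3 and 7.14, 1.38 and 1.97 in Rescue3.34 (term -1.99, SE 0.36, adjusted p 0.0834). Usp28, a deubiquitinase, had 71.1, 12.5 and 59.6 FPKM in WT3 and 65.7, 11.5 and 17.7 in Rescue3.34 (term -1.58, SE 0.26, adjusted p 0.0677). In each of these genes both lines were low at cXENp1, and WT3 was back toward its ESC level at passage 3. None of the 10 lower genes with the largest differences among those without a value of 0 passed the adjusted threshold.

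The other named lower genes followed that course. Ndrg2 had 44.9, 1.57 and 52.0 FPKM in WT3 and 35.2, 1.27 and 16.1 in Rescue3.34. Aldoc, aldolase C of glycolysis, had 32.8, 3.24 and 29.8 FPKM in WT3 and 32.0, 4.98 and 9.16 in Rescue3.34. Otx2, a homeobox factor of the epiblast, had 8.87, 0.0258 and 19.9 FPKM in WT3 and 9.99, 0.355 and 6.09 in Rescue3.34. All 3 show a low value at cXENp1 and a partial return in the rescue. At passage 3, Ppp1r1a, Abcg1, Klf15 and Tjp3 had 13.5, 8.41, 6.56 and 5.34 FPKM in WT3 and 2.94, 2.17, 1.55 and 1.14 in Rescue3.34. Kirrel2, listed at 0 in WT3 at cXENp1, had 11.0 FPKM in WT3 and 3.45 in Rescue3.34 at cXENp3.

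Pluripotency genes were lower in Rescue3.34 than in WT3 at passage 3, by modest amounts. All 18 of the list were below WT3 there, 6 by at least 2-fold (2.43% of all genes tested), with a median of -0.84, and the term called 0 of them. Fgf4, the growth factor by which ESCs prime themselves for differentiation, was the member that met the passage 3 rule, with 83.4, 0.326 and 89.6 FPKM in WT3 and 79.8, 0.579 and 31.6 in Rescue3.34 (term -1.57, SE 0.29, limma, adjusted p 0.0883). Nanog, a core pluripotency factor, had 239, 3.15 and 280.3 FPKM in WT3 and 272, 5.13 and 221 in Rescue3.34. Sox2, another, had 521, 19.96 and 400 FPKM in WT3 and 525, 40.8 and 195 in Rescue3.34. At cXENp1 13 of the 18 were above WT3, with a median of 0.30. Otx2 and Lef1, of 10 formative epiblast genes tested, were lower at passage 3 only (1.69% of the 9959 genes), and that list's median was -0.72.

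Gata6, Foxa2 and Dab2, endoderm genes, were far below the knockout lines in the rescue at passage 3, although Gata6 and Dab2 exceeded wild type. Gata6, a primitive endoderm factor, had 0.0558, 18.2 and 1.16 FPKM in WT3 and 0.0642, 7.04 and 5.03 in Rescue3.34, against 212 and 141 FPKM in the knockout lines at passage 3. Foxa2, an endoderm factor, was listed at 0 in both lines at ESC, had 3.90 FPKM in WT3 and 23.7 in Rescue3.34 at cXENp1 and was at most 0.0801 FPKM in both at cXENp3. At cXENp1 the rescue thus was above wild type and above the knockout lines, which had 7.42 and 18.9 FPKM. Dab2, an endocytic adaptor of visceral endoderm, had 1.90 FPKM in WT3 and 6.34 in Rescue3.34 at passage 3, against 86.8 FPKM in KO3.34. Foxa2 was an exception at cXENp1, where 15 of 20 XEN and primitive endoderm genes tested were below WT3, with a median of -0.29. At passage 3, 12 of the 20 were above WT3 and 8 below. Gata4 (1.11 FPKM in WT3 and 0.230 in Rescue3.34) and Sox17 (0.306 and 0.0632 FPKM) were among those below. Of the 20, 6 were at least 2-fold higher and 1 lower at passage 3 (5.62% and 2.43% of all genes tested), with a median of 0.37. Sparc was the member called, where 1.11% of all genes tested were called higher. It was listed at 0 in both knockout lines at cXENp3 and in both XEN lines, although KO2.6 had 852 FPKM at cXENp1. Those zeros are not taken as levels, so Sparc in the rescue has no reference there.

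**Figure D4:**
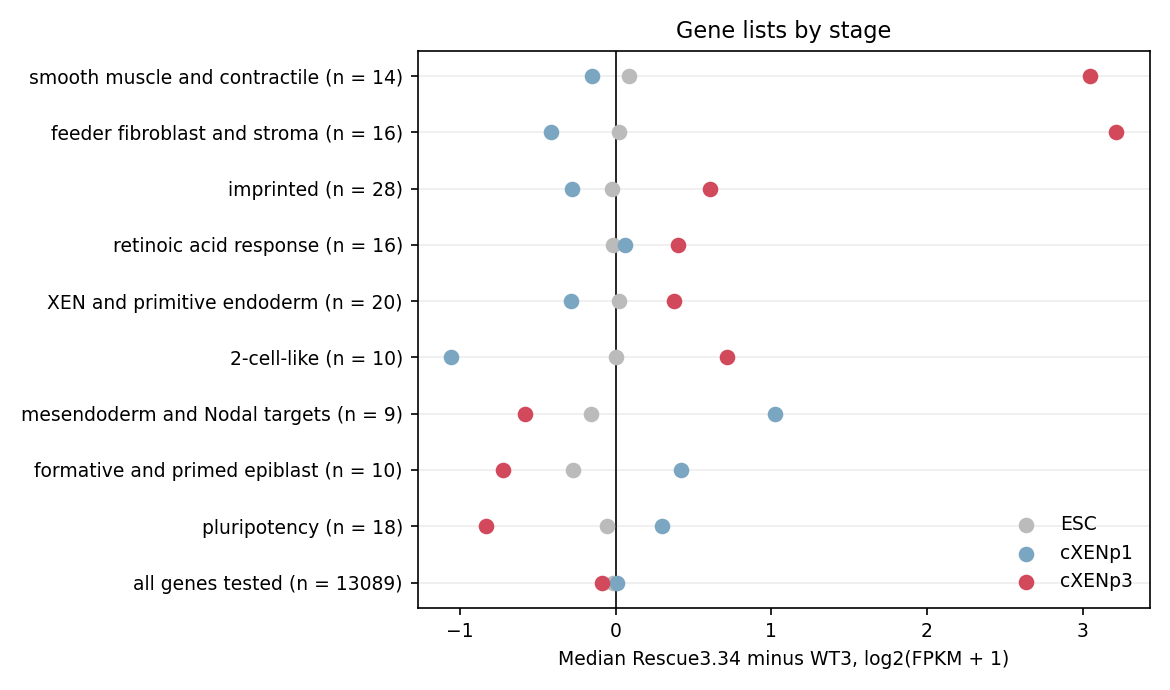
Median Rescue3.34 minus WT3 in log2(FPKM + 1) (x axis) of 9 gene lists and of all genes tested (y axis, number of genes tested in parentheses) at ESC, cXENp1 and cXENp3. The contractile and fibroblast lists stand at 3.05 and 3.22 at cXENp3, and the pluripotency list at -0.84.

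The differences at cXENp1 were of another kind. Lefty1, a secreted inhibitor of Nodal, had 52.8 FPKM in WT3 and 309 in Rescue3.34 at cXENp1, with 50.7 and 45.2 FPKM at ESC and 580 and 386 FPKM at cXENp3. Of 9 Nodal target and mesendoderm genes tested, 5 were at least 2-fold higher in Rescue3.34 at cXENp1, with a median of 1.02, and 0 at ESC or cXENp3 (0.756% of all genes tested at cXENp1). The 2-cell-like genes were at least 2-fold lower at cXENp1 in 7 of 10 (1.91% of all genes). Zscan4c, of the 2-cell-stage gene cluster, had 47.5 FPKM in WT3 and 22.8 in Rescue3.34 at cXENp1 but 1.87 and 7.97 FPKM at cXENp3. Since Zscan4 genes are near-identical copies, their reads may be split among them. None of these genes was called by limma in either model.

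Among retinoic acid targets, several were higher at cXENp1 than at ESC in both lines, whereas Crabp1, another carrier, was lower (62.9 and 17.5 FPKM in WT3, 60.6 and 25.2 in Rescue3.34). Cyp26a1, the enzyme that degrades retinoic acid, had 0.0324, 649 and 0.903 FPKM in WT3 and 0.227, 445 and 0.777 in Rescue3.34. Meis1, a homeobox cofactor, had 0.395, 38.4 and 0.301 FPKM in WT3 and 0.402, 30.2 and 4.53 in Rescue3.34 (term 2.25, SE 0.35, limma, adjusted p 0.0551). Crabp2, a retinoic acid carrier, had 5.18, 256 and 2.90 FPKM in WT3 and 5.00, 279 and 11.5 in Rescue3.34 (term 1.64, SE 0.27, adjusted p 0.0680). At passage 3 the list's median was 0.40. On the higher side, 5 of 16 members (Hoxb2, Hoxb4, Meis1, Meis2 and Crabp2) met the passage 3 rule, against 2.64% of the 9959 genes. The term called 0 of the 16.

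Most genes different at passage 3 only had differed between ESC and cXENp1, in the same direction in both lines. Of the 263 higher genes, 163 (62.0%) were at least 2-fold higher at cXENp1 than at ESC in both lines, against 10.2% of the 9959 genes. From cXENp1 to cXENp3, WT3 was at least 2-fold lower in 164 (62.4%), while Rescue3.34 stayed within 2-fold in 117 (44.5%) and was at least 2-fold higher in 108 (41.1%). Of the 168 lower genes, 118 (70.2%) were at least 2-fold lower at cXENp1 than at ESC in both lines, against 11.4%. WT3 then was at least 2-fold higher at passage 3 in 125 (74.4%), whereas Rescue3.34 stayed within 2-fold in 118 (70.2%). These shares use libraries that entered the rule and are given as a description.

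Libraries outside the rule were examined for these genes as well. In both knockout lines, 196 of the 263 higher genes (74.5%) were at least 2-fold higher at cXENp3 than at ESC, against 13.8% of the 9959 genes, and 55 of the 168 lower genes (32.7%) were at least 2-fold lower, against 10.4%. Both XEN lines were at least 2-fold above both knockout ESC libraries in 169 of the higher genes (64.3%, all genes 10.9%) and below them in 57 of the lower genes (33.9%, all genes 9.46%). These comparisons share no library with the rescue or wild type, but KO3.34 is the parent line of the rescue. Some higher genes, such as Postn and Myh11, reached 5 FPKM among the 6 libraries only in Rescue3.34 at cXENp3. The 9959 genes were not matched to the higher or lower genes for level, so these shares too are a description.

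The same course was measured on genes chosen without the passage 3 libraries, a choice made after values had been seen. Genes were taken that differed between ESC and cXENp1 by at least 2 on the log2 scale, in the same direction in both lines. The return was the part of that difference undone at cXENp3, 0 at the cXENp1 level and 1 at the ESC level. For 273 genes lower at cXENp1 the median return was 0.779 in WT3 (quartiles 0.548 and 0.945) and 0.514 in Rescue3.34 (0.288 and 0.757). For 363 genes higher at cXENp1 it was 0.849 in WT3 (0.708 and 0.959) and 0.509 in Rescue3.34 (0.225 and 0.756). At passage 3 Rescue3.34 was above WT3 in 27 of the 273 genes (9.89%, median difference -0.76) and in 316 of the 363 (87.1%, median 0.82).

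**Figure D5:**
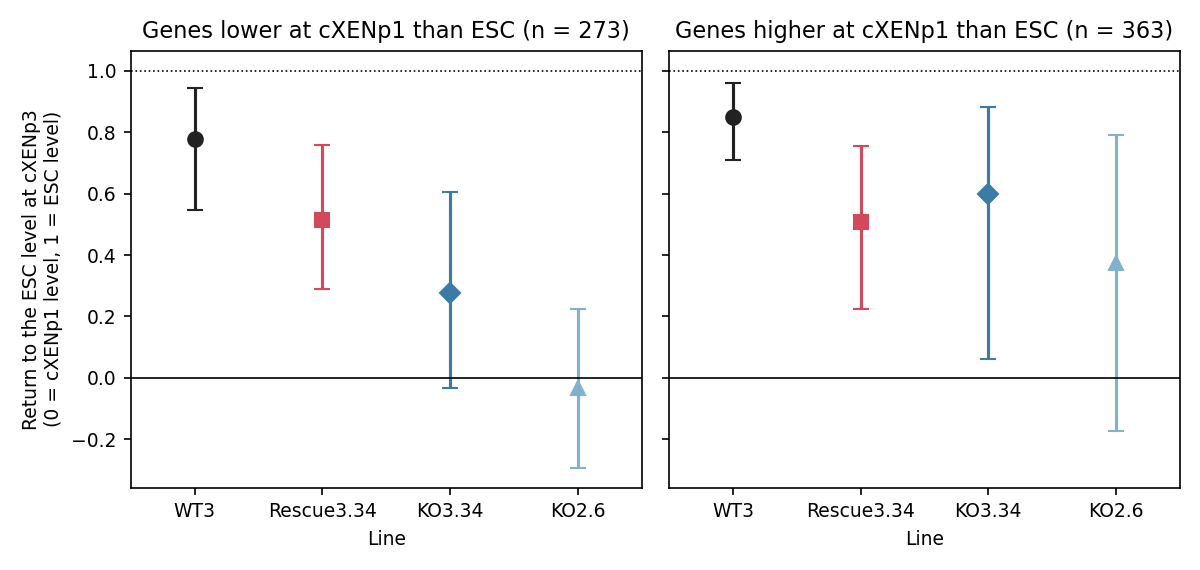
Return to the ESC level at cXENp3 (y axis, 0 is the cXENp1 level and 1 the ESC level) in the 4 lines (x axis) for genes lower (left) and higher (right) at cXENp1 than at ESC. Points are medians over genes and bars span the quartiles, so they show spread over genes of 1 library each. WT3 medians are 0.779 and 0.849, and Rescue3.34 medians are 0.514 and 0.509.

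In the knockout lines the same measure gave medians of 0.276 in KO3.34 and -0.03 in KO2.6 for the lower genes, and 0.599 and 0.373 for the higher genes. A line entered only where its own ESC and cXENp1 values were at least 2-fold apart, which left 253 and 181 of the 273 lower genes and 353 and 328 of the 363 higher genes. Over the 174 lower genes that entered in all 4 lines, wild type had a median of 0.848, the rescue 0.623, its parent line 0.322 and KO2.6 -0.03. Over 321 such higher genes the medians, in that order, were 0.855, 0.515, 0.600 and 0.371. For the lower genes Rescue3.34 thus lay between WT3 and its parent line. For the higher genes its median was below that of WT3 and also below that of KO3.34, whose quartiles, 0.062 and 0.881, span it. The difference between lines in return has no test, because each line gave 1 library per stage.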

How the data were processed

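PolyA RNA-seq libraries (paired reads of 150 bp, per the labels' protocols) had been processed by the authors into 1 table of FPKM values per gene and library. STAR 2.5.3, Cufflinks 2.1.1 and build mm9 are named in the submitters' processing notes, without roles, and the annotation is not given in the sources used here. The deposited FPKM of 23174 rows (259 with a repeated symbol) entered every test as log2(FPKM + 1), a scale on which low genes show smaller changes than their ratio. Coordinates are the table's, counted from 1. Columns were assigned to samples by title.

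Genes with at least 1 FPKM in at least 1 of the 6 WT3 and Rescue3.34 libraries were fitted with limma 3.58.1 in R 4.3.3 (lmFit, eBayes with trend). One model held stage and line (2 residual degrees of freedom), the other stage, line and a line by cXENp3 term (1 residual degree of freedom). Calls have a Benjamini-Hochberg adjusted p under 0.05 over 13089 genes. Libraries of 1 line stand in for replicates, and the fits were tested on simulated data. The 2-fold classes are descriptions, made with pandas 2.3.3 at a highest value of at least 5 FPKM. Named are Zfp281, the 10 genes per side and class with the largest differences, up to 3 per side listed at 0, called list members and others for level. Further genes were chosen after their values were seen: Cda, Lmbr1l, Gab1, Gbx2, Crabp1, the neighbours of Alox12e, Cldn4, Cdk5r2, Snhg9, Vcl, Acta1 and those at the edge of a rule. The members, the 16 gene lists and the tests were chosen with earlier results of these data known. Alternatives covered the pseudocount, the filters, normalization, the trend, the block and leaving out a stage. Promoter sequences are from RefSeq (GRCm38.p6).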

Additional observations from a re-analysis of the deposited data

Results flagged for a closer look

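The difference between Rescue3.34 and WT3 was set against stage. The term for cXENp3 beyond ESC and cXENp1 was called in 150 genes by limma at an adjusted p under 0.05, 145 of them higher and 5 lower at passage 3, and 1776 genes had an unadjusted p under 0.05. Each stage holds 1 library per line, so the spread at passage 3 was not measured, and 23 of the called genes were listed at 0 in at least 1 of the 6 libraries.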

How the results depend on the processing

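The count of genes different across the 3 stages was 0 under every alternative run, from 0 to 0 when 1 stage was left out. Its unadjusted counts ran from 36 without the stage block to 570 without the cXENp1 pair, and its smallest adjusted p was 0.0615, without the cXENp3 pair. The 150 genes with a cXENp3 term became 35 at a pseudocount of 0.1, 352 with at least 2 libraries at 1 FPKM, 0 with any value above 0 (smallest adjusted p 0.347, 1894 genes unadjusted), 243 at a mean of at least 5 FPKM and 407 without genes listed at 0. These sets test different numbers of genes, from 8660 to 18113. The lower share grew from 5 of 150 to 53 of 243 and 76 of 407. This term could not be fitted with a stage left out, since no residual degree of freedom remains.

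The 3 genes apart at all stages became 6 at a pseudocount of 0.1, 1 at a highest value of at least 20 FPKM, 0 at a minimum difference of 2 and, by a choice made after seeing the data, 23 at 0.5 (5 higher, 18 lower). The 431 genes apart at cXENp3 only (263 higher, 168 lower) became 429 at a pseudocount of 0.1 (221 and 208). With quantile normalization they became 379 (261 and 118), so the lower side shrank more. They became 633 at a highest value of at least 1 FPKM (430 and 203) and 216 at 20 FPKM (111 and 105). A minimum difference of 2 gave 121 (117 higher, 4 lower), a limit of 1 at the other stages 663, and leaving out the fibroblast list 425. Genes moved the wild-type way by at least 2-fold were 390 of 1658, 233 of 1270 and 2222 of 4921 at ESC, cXENp1 and cXENp3. At a minimum difference of 2 in both comparisons they became 33 of 344, 23 of 253 and 621 of 1965. No paired analysis was possible by replicate number because each group has 1 library, and the main model pairs the lines by stage. With no read counts, depth sets no stated limit on low values.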

Other observations

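A run of neighbouring genes on chromosome 15 was lower in Rescue3.34 than in WT3 at every stage, a pattern noticed in the data and not tested. Lmbr1l, Troap and Spats2, among the 21 of 13089 genes (0.16%) that were lower by at least 0.5 on the log2 scale at all 3 stages, lie between 98734352 and 99042897 (mm9). Spats2, a spermatogenesis gene, had 31.9, 51.7 and 61.7 FPKM in WT3 at ESC, cXENp1 and cXENp3, 15.8, 31.9 and 16.0 FPKM in Rescue3.34 and 30.6, 61.6 and 81.9 FPKM in KO3.34. Troap, a spindle protein, had 15.6, 7.20 and 12.4 FPKM in WT3, 7.796, 4.10 and 3.65 in Rescue3.34 and 10.2, 8.56 and 12.9 FPKM in KO3.34. Between these 2 genes, C1ql4 and Dnajc22 were also lower at each stage, Dnajc22 with 8.20, 3.33 and 5.76 FPKM in WT3 against 2.76, 2.15 and 1.14 in Rescue3.34. Prph, next to Troap, had 14.9, 8.31 and 9.59 FPKM in WT3 and 4.89, 5.99 and 5.51 in Rescue3.34. Of the 14 genes tested in this stretch and 100000 bases on either side, 6 were below WT3 at all 3 stages, against 14.5% of all genes tested. Lmbr1l, Troap and Spats2 are among these 6 and set the stretch, so the count is raised by that choice. C1ql4, another of the 6, was at most 1.08 FPKM in WT3 and Rescue3.34. The tubulin genes Tuba1b, Tuba1a and Tuba1c, which lie between Lmbr1l and Prph, were not among the 6. At cXENp1 these tubulin genes were higher in Rescue3.34 by 0.11, 0.18 and 0.28.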
